A study of Mus musculus with 4 samples.

Results

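The matrix metalloproteinases and their tissue inhibitors (TIMPs) were followed through 3 libraries of mouse liver cells as 10 genes, 7 proteases (Mmp2, Mmp3, Mmp7, Mmp13, Mmp14, Mmp19 and Mmp23) and 3 inhibitors (Timp1, Timp2 and Timp3). They were picked by symbol and are 10 of 31053 features in the count tables. Non-parenchymal liver cells came from Col1a2-CreERT2 mice with a tdTomato reporter, in which cells with Col1a2 promoter activity can be marked, and were profiled by droplet-based 3' sequencing. Steatohepatitis was modelled with a diet without methionine and choline that held 45% fat, given for 8 weeks with 0.1% L-methionine in the drinking water (MCDHF). The 3 groups were reporter-positive cells in recovery, reporter-negative cells in recovery and reporter-negative cells in injury, with 1 library each. Their genotype labels are Col1a2-CreERT2; R27RtdTomato, Col1a2-CreERT2; R29RtdTomato and Col1a2-CreERT2; R28RtdTomato in that order. Counts of the positive injury library were not analysed here. In the labels and design text used here, the age of the mice, the number pooled in a library, the timing of Cre induction and the length of recovery are not stated there.

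MMPs are zinc-dependent endopeptidases that cut collagens, other matrix proteins and many cell-surface proteins, and most are made as inactive proenzymes. TIMPs bind the active site of MMPs and block it. In fibrotic liver, stellate cells and other mesenchymal cells are known sources of Mmp2, Mmp14, Timp1 and Timp2, and the balance of proteases and inhibitors is thought to bear on how scar matrix is laid down and removed.

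After filtering, 2488 cells remained in positive recovery, 2955 in negative recovery and 5448 in negative injury, with medians of 11278, 8673 and 6857 unique molecular identifiers (UMIs) per cell. Between 3 and 8 cell barcodes were shared by any pair of these libraries. With 1 library per group there is no replicate check and no test, and all intervals are 95% limits for counting error only. Levels are summed UMIs per 1000000 (CPM), ratios are log2 with 10 CPM added to both sides, a gene counts as measured with at least 20 UMIs over both groups, and a call means a difference of at least 2-fold on that scale. Cells were gated by at least 1 UMI of both genes of a marker pair. Mesothelial-gated cells (Upk3b and Nkain4) numbered 1372 in positive recovery, 78 in negative recovery and 284 in negative injury. In the same order, stellate-gated cells (Lrat and Reln) numbered 153, 5 and 39, duct-gated cells (Epcam and Tm4sf4) 24, 394 and 1032, and endothelial-gated cells (Kdr and Ptprb) 169, 2308 and 3635. Each gated class held at least 1 UMI of every marker of its own list, 10 of 10 for mesothelial, duct and endothelial and 11 of 11 for stellate cells. These lists include the gate genes, and the count does not tell classes apart. Mesothelial-gated cells of positive recovery also held 11 of 11 stellate and 10 of 10 endothelial markers. Those summed to 9764 and 156 CPM, beside 10821 CPM of mesothelial markers. Dcn, 1 of the 11 stellate markers, made up 9370 of the 9764 CPM. Each library is a mixture, so in sums over a library fewer cells of a type and less RNA per cell cannot be told apart.

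Mmp7, Mmp3 and Mmp13 lie within a stretch of mouse chromosome 9, at 7692090-7699585, 7445822-7455975 and 7272514-7283331 (mm10, plus strand, GENCODE M21). The 100 bases before their annotated starts are shown because each holds the letters TGANTCA, where N is any base. These were searched on both strands, and the match is marked in capitals (RefSeq windows, GRCm38.p6). The search covers TGACTCA and TGAGTCA, the recognition sequences of AP-1 factors, and also other bases at N.

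Mmp7, chr9:7691990-7692089: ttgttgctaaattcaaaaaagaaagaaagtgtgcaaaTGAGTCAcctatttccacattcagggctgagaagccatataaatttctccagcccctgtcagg

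Mmp3, chr9:7445722-7445821: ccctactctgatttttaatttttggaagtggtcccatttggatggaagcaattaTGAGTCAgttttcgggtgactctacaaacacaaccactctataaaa

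Mmp13, chr9:7272414-7272513: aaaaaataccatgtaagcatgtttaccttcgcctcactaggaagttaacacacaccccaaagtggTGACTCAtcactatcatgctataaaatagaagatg

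The match begins 63 bases before the start of Mmp7, 46 before that of Mmp3 and 35 before that of Mmp13. RefSeq windows of 300 bases, from 250 before to 50 after a start, were found for 8 of the 10 genes, and TGANTCA was not in those of Mmp14, Mmp23, Timp1, Timp2 and Timp3 or in that of a further Mmp7 start. Of 32851 such windows of mouse genes, 6.75% held TGANTCA, and 2.73% held it in the nearest 100 bases. The letters CCAAT, searched on both strands and held by 33.9% of all windows, was found in those of Mmp7, Mmp14, Timp1 and Timp2. These are matches of letters and do not show that a factor binds there.

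Mmp7, known as matrilysin, is a small secreted protease of epithelia. Duct-gated cells held 98.5% of its UMIs in negative recovery and 93.8% in negative injury. In duct-gated cells its level was 73.7 CPM (66.6 to 81.3) in negative recovery and 1366 CPM (1348 to 1384) in negative injury, so it was 18.5-fold lower in recovery, a log2 ratio of -4.04. It was the only 1 of 6 measured genes past 2-fold in duct-gated cells, where 1.61% of 12772 measured genes were called lower and 0.658% higher. Timp1 stopped short of the call there with 10 CPM added, at -0.92. Without added CPM it was 9.96-fold lower in recovery (4.49 to 27.5), from 6 and 179 UMIs.

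Mmp7 also differed in how many duct-gated cells held it. A UMI was found in 24.1% of 394 cells in negative recovery (19.97 to 28.7%) and in 89.6% of 1032 cells in negative injury (87.6 to 91.4%), at medians of 11331.5 and 15053.5 UMIs per cell. Endothelial-gated cells of the same libraries, at medians of 8442 and 6164 UMIs, held it in 0.0433% and 4.18%. To remove the difference in depth, cells were thinned to 1000 UMIs, which left out 4 cells in recovery and 6 in injury. The shares were then 3.85% (2.17 to 6.26%) in negative recovery and 58.3% (55.2 to 61.3%) in negative injury, while in endothelial-gated cells they were 0% and 0.754%.

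**Figure D1:**
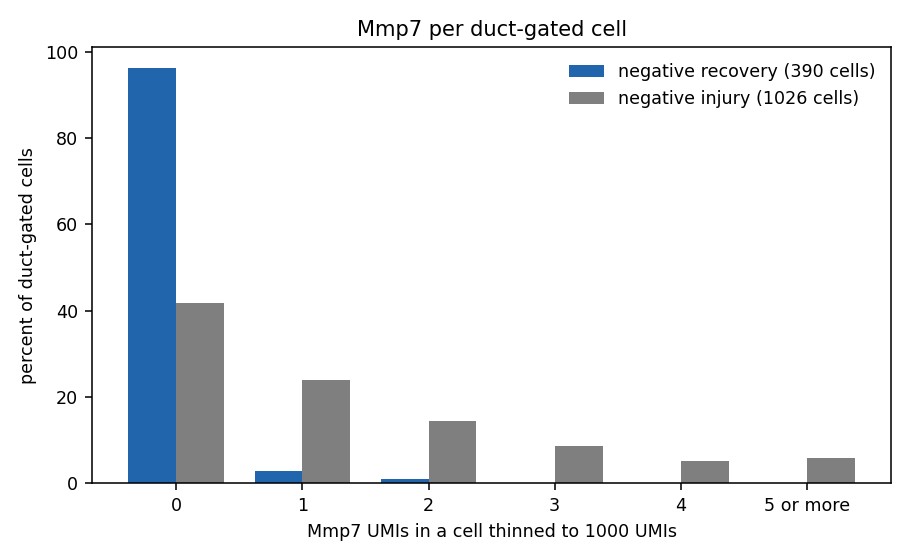
Share of duct-gated cells (y axis, percent) by the number of Mmp7 UMIs left in a cell thinned to 1000 UMIs (x axis), for 390 cells of negative recovery and 1026 of negative injury. In recovery 375 cells held no Mmp7 UMI, whereas in injury 41.7% held none and 5.95% held 5 or more.

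The remaining Mmp7 in negative recovery was uneven. The 10 cells with most Mmp7 held 57.1% of its UMIs in duct-gated cells of recovery, against 5.33% in injury. The highest recovery cell alone had 79 UMIs, and without it the level was 59.6 CPM. The 24 duct-gated cells of positive recovery held 5 Mmp7 UMIs in all. The duct markers were at similar summed levels, 26460.5 CPM in negative recovery and 25934 CPM in negative injury. Hepatocyte markers were all detected in duct-gated cells, 6 of 6 in both, and summed to 6958 CPM in recovery and 10036 CPM in injury. Cells of negative injury that passed no gate held hepatocyte markers at 33202 CPM in sum. Of their 2127074 UMIs, 138 were of Mmp7. The part of hepatocyte RNA in the Mmp7 difference was not tested.

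Outside duct cells Mmp7 was low. Endothelial-gated cells held 1 UMI in negative recovery and 309 in negative injury, or 0.0511 and 13.5 CPM, a log2 ratio of -1.23. In injury 50.2% of those UMIs lay in 10 cells. With only endothelial-gated cells that had 0 Epcam UMIs, the levels were 0.0520 CPM in recovery and 6.48 CPM in injury, a log2 ratio of -0.71 that is no longer past 2-fold. Set against the duct transcript Spp1, osteopontin, injury cells held 90.6 Mmp7 UMIs for each 1000 of Spp1 in endothelial-gated cells, 66.6 in duct-gated cells and 63.9 in mesothelial-gated cells. In recovery this ratio was 3.64 in duct-gated and 0.718 in endothelial-gated cells.

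Mmp14 encodes MT1-MMP, a membrane-anchored collagenase that also activates the proenzyme of Mmp2 on the cell surface with Timp2 as an adaptor. It was the most widely detected protease, present in every gated class. Endothelial-gated cells had 115 CPM in positive recovery, 143 CPM in negative recovery (138 to 148.5) and 295 CPM in negative injury (288 to 302.5). Duct-gated cells had 77.5, 74.2 and 127 CPM in the same order, the first from 20 UMIs in 24 cells. Mesothelial-gated cells had 72.1, 58.8 and 74.95 CPM. The 5 stellate-gated cells of negative recovery are too few for a level. Stellate-gated cells had 158 CPM in positive recovery and 141 CPM in negative injury, with intervals that overlap.

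Between negative recovery and negative injury, the log2 ratio of Mmp14 was -0.996 in endothelial-gated cells, just short of 2-fold and past it with TMM scaling at -1.17, -0.70 in duct-gated cells and -0.31 in mesothelial-gated cells. Over whole libraries it was at 123 CPM in recovery and 200.4 CPM in injury. Endothelial-gated cells held 83.5% of its UMIs in negative recovery and 69.0% in negative injury, whereas mesothelial-gated cells held 57.7% in positive recovery.

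Mmp2, gelatinase A, cuts denatured collagen and basement membrane collagen. It was at 70.1 CPM (67.3 to 73.0) in positive recovery, at 0.696 CPM in negative recovery and at 2.57 CPM in negative injury, from 2322, 19 and 125 UMIs. The positive library was 101-fold above the negative one in recovery (64.3 to 167.5), a log2 ratio of 2.91. Within positive recovery, stellate-gated cells had 450.5 CPM and held 37.6% of the UMIs.

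Ungated cells of that library with Dpt and Mfap4, 2 fibroblast genes, numbered 99. This subset was set after values were seen. It had Mmp2 at 674 CPM (627 to 723) and held 33.4% of the UMIs. Endothelial-gated cells of that library had 17.7 CPM from 31 UMIs. The highest of these cells held 13 of them, and without that cell the level was 10.4 CPM. In negative injury 39 stellate-gated cells had 187 CPM (149 to 231), and they held 68.0% of the 125 UMIs.

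Mesothelial-gated cells had little Mmp2, with 8.16 CPM (7.05 to 9.39) against 450.5 CPM (421 to 481) in stellate-gated cells of positive recovery, a log2 ratio of -4.67. Of their 195 UMIs, 55.4% lay in 10 cells, and in mesothelial-gated cells with 0 Dpt UMIs the level was 2.85 CPM. Mmp14 was also past 2-fold between these classes, at 72.1 CPM in mesothelial-gated and 158 CPM in stellate-gated cells, a log2 ratio of -1.03. These were 2 of 7 measured genes, both lower in mesothelial-gated cells, where 6.68% of 13222 measured genes were lower and 6.49% higher. Mmp23, at 116 CPM against 216 CPM, and Timp2, at 1709 CPM against 906 CPM, stopped short of 2-fold, with log2 ratios of -0.84 and 0.91. With TMM scaling, and likewise with at least 2 UMIs of each gate marker, Timp2 passed it and Mmp14 did not. Their log2 ratios were then 1.04 and -0.91 with TMM and 1.05 and -0.97 with the stricter gate, a split of 1 higher and 1 lower.

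The 3 genes of the cell-surface activation of Mmp2 were counted in the same cell. Mmp14, Timp2 and Mmp2 were all found in 94 of 153 stellate-gated cells of positive recovery, 61.4% (53.2 to 69.2%), and in 25 of 39 of negative injury, 64.1%. The Dpt and Mfap4 cells had all 3 in 74 of 99. In mesothelial-gated cells of positive recovery, which were deeper, the share was 3.72% (2.78 to 4.86%), although 56.1% held Mmp14 with Timp2. Duct-gated cells of negative recovery had UMIs of all 3 in none of 394, which allows up to 0.932% of cells with such UMIs and sets no limit on expression. Duct-gated cells of negative injury held Mmp14 with Timp2 in 71.5% and all 3 in 0.194%.

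Mmp13, collagenase-3, is a main collagenase of mouse interstitial matrix, and Mmp3, stromelysin-1, cuts matrix proteoglycans and activates other MMPs. Both were sparse. Mmp3 had 73 UMIs in positive recovery, 0 in negative recovery and 0 in negative injury, so in recovery its level was at least 15.9-fold higher in positive cells by the lower counting limit, and 20.05-fold higher with negative recovery set to 3 UMIs. A single cell held 25 of the 73, without which the level of 2.20 CPM was 1.45 CPM, and 10 cells held 90.4%. Of the 73, 15 were in mesothelial-gated cells, 4 in stellate-gated cells, 18 in cells that passed several gates and 36 in cells that passed none.

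Mmp13 had 15 UMIs in positive recovery, all in ungated cells and 12 of them in cells with a UMI of Ptprc, the pan-leukocyte gene CD45. It had 0 UMIs in negative recovery and 1 in negative injury. It was under the 20 UMIs that count as measured.

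Mmp23 is a membrane-tethered protease without the hemopexin-like domain of most MMPs. Its level was 117 CPM (113 to 121) in positive recovery, 3.77 CPM (3.08 to 4.58) in negative recovery and 7.57 CPM (6.82 to 8.39) in negative injury. In recovery it was 31.0-fold higher in the positive library, a log2 ratio of 3.21. Mesothelial-gated cells held 71.7%, 69.9% and 62.3% of its UMIs in the 3 libraries. Per class it was at 292 CPM in Dpt and Mfap4 cells, 216 CPM in stellate-gated cells and 116 CPM in mesothelial-gated cells of positive recovery. In negative injury stellate-gated cells were again above mesothelial-gated cells. It was at 92.3 CPM in 39 stellate-gated cells (66.6 to 125) and 39.6 CPM in mesothelial-gated cells (34.7 to 45.1).

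Mmp19, which cuts basement membrane proteins, was sparse in the negative libraries. It had 341 UMIs in positive recovery, 10 in negative recovery and 94 in negative injury, or 10.3, 0.366 and 1.93 CPM. Mesothelial-gated cells held 65.7% of its UMIs in positive recovery, 0 of 10 in negative recovery and 29.8% in negative injury. The log2 ratio of positive over negative recovery was 0.97, which is 28.1-fold (15.1 to 59.1) without added CPM.

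Of the inhibitors, Timp1 is the inducible one and a widely used marker of liver fibrosis. It was highest in mesothelial-gated cells in both negative libraries. Mesothelial-gated cells held 85.4% of its UMIs in positive recovery, 67.5% in negative recovery and 74.6% in negative injury. In those cells it was at 144 CPM (125 to 165) in negative recovery and 432 CPM (415 to 449) in negative injury, a log2 ratio of -1.52. A UMI was found in 78.2% of 78 cells in recovery and in 93.0% of 284 cells in injury, and after thinning in 12.8% (6.32 to 22.3%) and 27.5% (22.4 to 33.1%). Duct-gated cells of the same libraries, with the lowest level, had it in 1.52% and 10.4%, and after thinning in 0.256% and 0.390%. Mesothelial markers summed to 11030 CPM in recovery and 7076 CPM in injury.

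Timp1 was the only 1 of 7 measured genes past 2-fold in mesothelial-gated cells between negative recovery and negative injury, where 2.09% of 10809 measured genes were lower and 2.0% higher. With TMM scaling the median log2 ratio of all measured genes there was -0.04 in place of 0.08, and 1 gene of the family was past 2-fold as before. It was lower in recovery in the other classes as well. Endothelial-gated cells had 3.78 CPM (2.97 to 4.75) in negative recovery and 19.4 CPM (17.6 to 21.3) in negative injury, a log2 ratio of -1.09, which was -0.99 with cells weighted equally. Duct-gated cells had 6 UMIs in recovery and 179 in injury, 1.10 and 11.0 CPM, a log2 ratio of -0.92. Without added CPM that is 9.96-fold lower in recovery (4.49 to 27.5). The 442 Timp1 UMIs of endothelial-gated injury cells stood beside 43 UMIs of the mesothelial gene Msln, 10279 for each 1000, whereas mesothelial-gated cells of that library held 288 for each 1000.

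In positive recovery a single cell weighed on Timp1. Mesothelial-gated cells of that library had 195 CPM in sum, of which 31.9% came from 1 cell with 1484 Timp1 UMIs. It was the deepest cell of the library, with 177516 UMIs and 9540 genes against a class median of 14934 UMIs, and had 4.36% mitochondrial UMIs and no UMI of Ptprc, Dpt, Kdr or Epcam. Without it the class was at 134 CPM (129 to 138), close to the 144 CPM of negative recovery, and the log2 ratio changed sign, at 0.41 with the cell and -0.10 without it. Stellate-gated cells of positive recovery were at 133 CPM, of which 27.1% came from 1 cell, and at 99.1 CPM (85.4 to 114) without it. Over the whole library Timp1 was at 164 CPM in positive recovery, 11.3 CPM in negative recovery and 69.0 CPM in negative injury, and without that cell positive recovery was at 120 CPM.

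Timp2 is expressed widely, and besides blocking MMPs it links Mmp14 to the Mmp2 proenzyme. Mesothelial-gated cells had 1709 CPM (1692 to 1725) in positive recovery, 1697 CPM (1631 to 1766) in negative recovery and 1192 CPM (1164 to 1221) in negative injury. Stellate-gated cells had 906 CPM in positive recovery and 361 CPM in negative injury. Duct-gated cells were close together in the negative libraries, at 213 CPM in recovery and 198 CPM in injury. The 24 duct-gated cells of positive recovery were at 240 CPM, from 62 UMIs only. Endothelial-gated cells had 142 CPM in positive recovery, 23.5 CPM in negative recovery and 10.6 CPM in negative injury, so between the negative libraries Timp2 was 2.22-fold (1.90 to 2.61) higher in recovery and its log2 ratio 0.70. Endothelial-gated cells of positive recovery also held stellate markers at 4184 CPM in sum, 11 of 11 detected. Those of negative recovery and negative injury held 141 and 169 CPM. The stellate marker Dcn alone was at 2465, 30.7 and 56.3 CPM in the 3 libraries in that order. Mesothelial markers in endothelial-gated cells summed to 322.5 CPM in positive recovery, 37.7 CPM in negative recovery and 29.8 CPM in negative injury. The part of stellate and mesothelial RNA in the Timp2 and Mmp2 of these cells was not tested.

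Timp3 binds to the matrix and also inhibits several ADAM proteases. It led in endothelial-gated cells, at 1151 CPM (1101 to 1202) in positive recovery, 1297 CPM (1281 to 1313) in negative recovery and 1728 CPM (1711 to 1745) in negative injury. These cells held 93.7% of its UMIs in negative recovery and 89.3% in negative injury, while in positive recovery 66.5% came from mesothelial-gated cells. Mesothelial-gated cells had 424, 183 and 94.1 CPM in the same order of libraries. Duct-gated cells had 167, 179.5 and 153 CPM, the first from 43 UMIs in 24 cells. Stellate-gated cells had 458 CPM in positive recovery and 255 CPM in negative injury. Between negative recovery and negative injury the log2 ratio was 0.89 in mesothelial-gated, 0.21 in duct-gated and -0.41 in endothelial-gated cells, all within 2-fold.

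**Figure D2:**
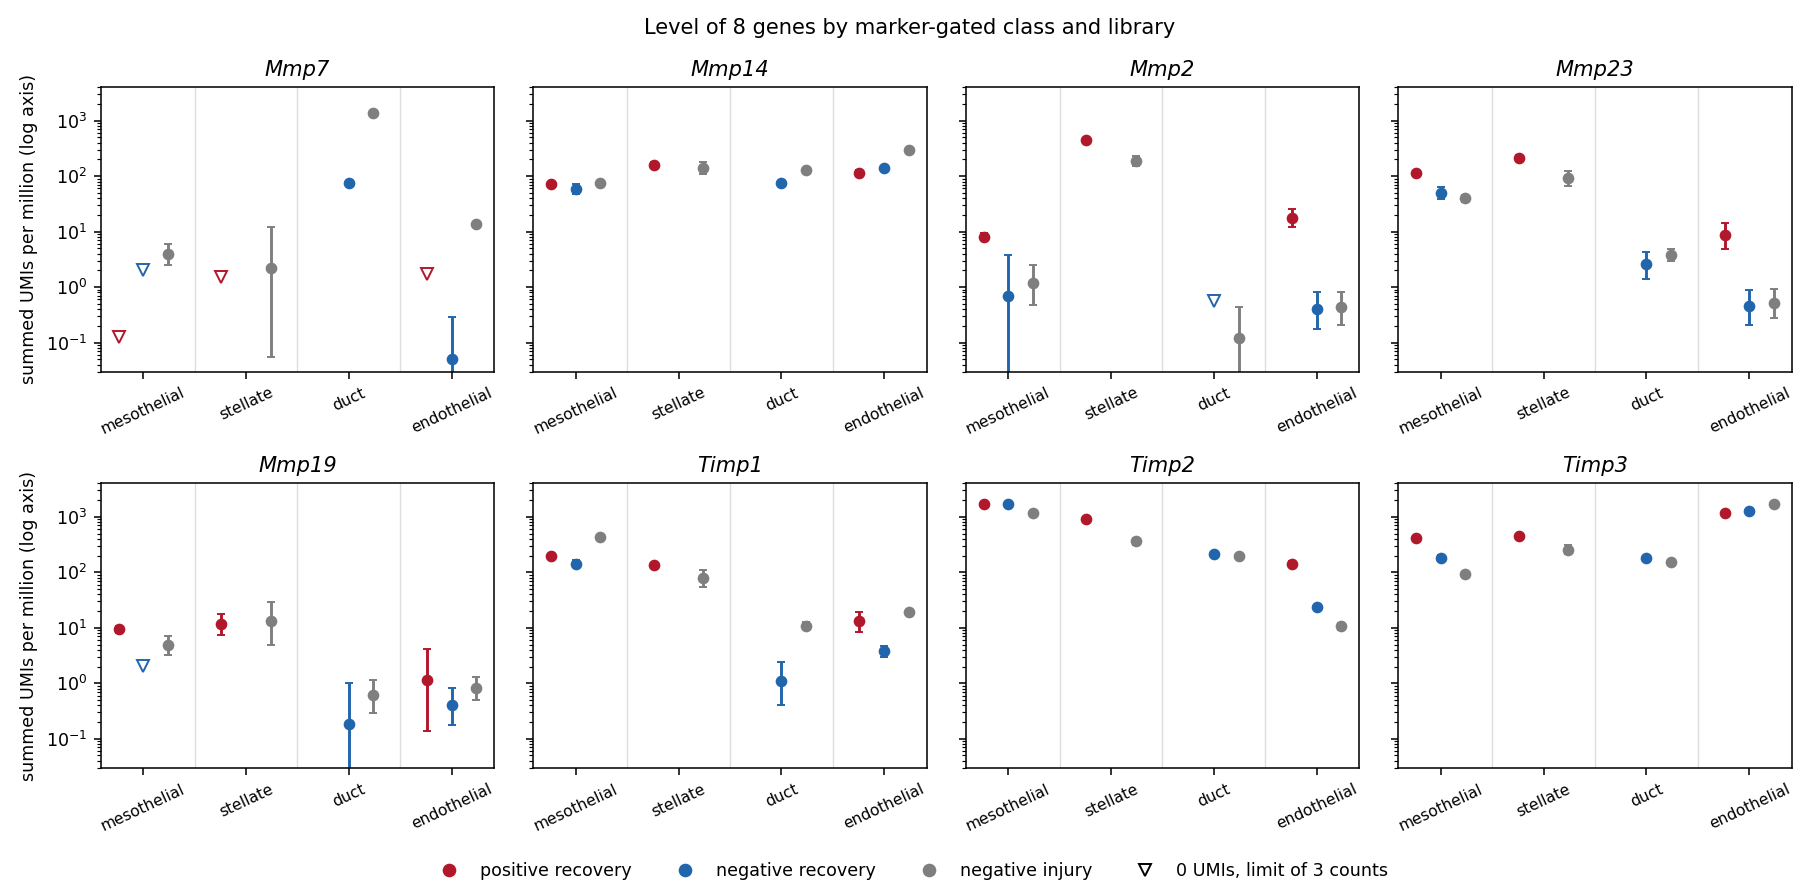
Level of 8 of the genes in CPM (y axis, log scale) in 4 gated classes (x axis), with 1 point per library and exact Poisson 95% intervals. Mmp7 stands out in duct-gated cells of negative injury at 1366, Timp3 leads in endothelial-gated cells, Timp2 in mesothelial-gated cells, and Mmp2 in stellate-gated cells.

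Set side by side over whole libraries, positive recovery against negative recovery gave 9 measured genes, of which Mmp2, Mmp23, Timp1 and Timp2 were higher and Mmp7 and Timp3 lower. Of 15241 measured genes, 5.94% were higher and 6.82% lower. The median log2 ratio was 0.97 for the measured genes of the family and -0.07 for all measured genes. All 10 mesothelial markers and 10 of 11 stellate markers were higher in the positive library, while 10 of 10 endothelial and 8 of 10 duct markers were lower, so the cell makeup of the libraries moved with these values and its part was not tested. With TMM scaling the split was 5 higher and 1 lower, with Mmp19 added at a log2 ratio of 1.013 and Timp3 lost at -0.93. Mmp7, at 0.151 CPM in positive and 14.9 CPM in negative recovery, had a log2 ratio of -1.30, and of -0.87 with cells weighted equally. In that comparison Timp2 was at 1426 CPM in positive and 161 CPM in negative recovery, a log2 ratio of 3.07, and Timp3 at 461 CPM in positive and 993 CPM in negative recovery, a log2 ratio of -1.09.

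Negative recovery against negative injury, which shares the negative recovery library with that comparison, gave 8 measured genes, 0 higher and 2 lower, beside 1.0% and 2.2% of 15091 measured genes. Mmp7 was at 14.9 CPM in recovery and 487 CPM in injury, a log2 ratio of -4.32, and Timp1 at 11.3 and 69.0 CPM, a log2 ratio of -1.89. The median log2 ratio was -0.41 for the family and 0.04 for all measured genes. In endothelial-gated cells 2 of 7 measured genes, Mmp7 and Timp1, were lower, beside 1.89% of 12836 measured genes lower and 0.538% higher, and the family's median was -0.41 against 0.11.

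**Figure D3:**
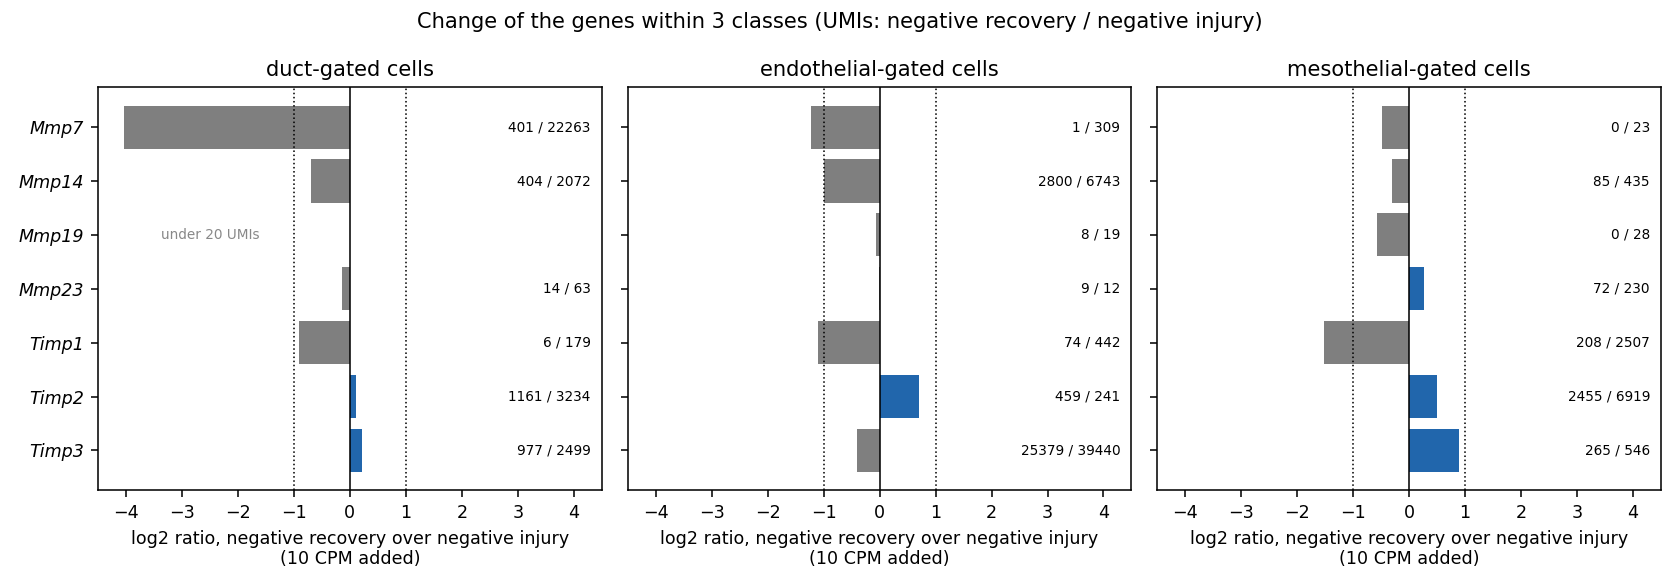
Log2 ratio of negative recovery over negative injury with 10 CPM added (x axis) for 7 of the genes in duct-gated, endothelial-gated and mesothelial-gated cells, with the UMIs of recovery and injury at the right and dotted lines at 2-fold. Mmp7 in duct-gated cells reaches -4.04, Timp1 is left of 0 in all 3 classes, and Timp3 is right of 0 in duct-gated and mesothelial-gated but left of it in endothelial-gated cells.

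The balance of the family was taken as the share of protease UMIs among the UMIs of all 10 genes. A 3' count is per molecule and capture differs between genes, so the share is set between classes and is no ratio of proteins. In duct-gated cells it was 27.7% (26.1 to 29.3%) in negative recovery and 80.5% (80.05 to 80.95%) in negative injury. Mmp7 made up 91.2% of the protease UMIs of duct-gated cells in injury. In recovery Mmp14 made up 49.3%, and it was about level with Mmp7, with 404 and 401 UMIs. Without Mmp7 the shares were 16.35% in recovery and 26.6% in injury. The share leaves out 15 other metalloproteinase genes of the count tables. In duct-gated cells these summed to 118 CPM in negative recovery and 64.65 CPM in negative injury. The 7 proteases of the family summed to 151 and 1497 CPM there. The part of the other metalloproteinases in the balance was not tested.

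Among gated classes with at least 30 cells, mesothelial-gated cells had the lowest protease share in each library, with 8.15% (7.93 to 8.37%) in positive recovery, 5.12% (4.37 to 5.96%) in negative recovery and 6.76% (6.29 to 7.25%) in negative injury. That order rested on Timp2. Without it the shares in mesothelial-gated cells were 25.01% in positive recovery, 25.04% in negative recovery and 19.15% in negative injury, above the 10.9%, 9.99% and 15.1% of endothelial-gated cells in the same libraries. Mmp23 made up 56.3% of the protease UMIs and Timp2 73.4% of the inhibitor UMIs of the positive recovery cells. Stellate-gated cells had 35.9% (34.5 to 37.3%) in positive recovery and 38.5% (34.3 to 42.9%) in negative injury, intervals that overlap, and Mmp2 led with 53.7% of the protease UMIs in positive recovery. The Dpt and Mfap4 cells were close, at 36.9%.

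Endothelial-gated cells stood at 9.80% (8.67 to 11.0%) in positive recovery, 9.83% (9.49 to 10.2%) in negative recovery and 15.0% (14.7 to 15.35%) in negative injury. Mmp14 made up 99.1% of their protease UMIs in negative recovery and 95.1% in negative injury, and Timp3 97.9% and 98.3% of their inhibitor UMIs. Without Timp3 the shares were 84.1% in negative recovery and 91.2% in negative injury, so in these cells the balance rested on Mmp14 and Timp3.

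**Figure D4:**
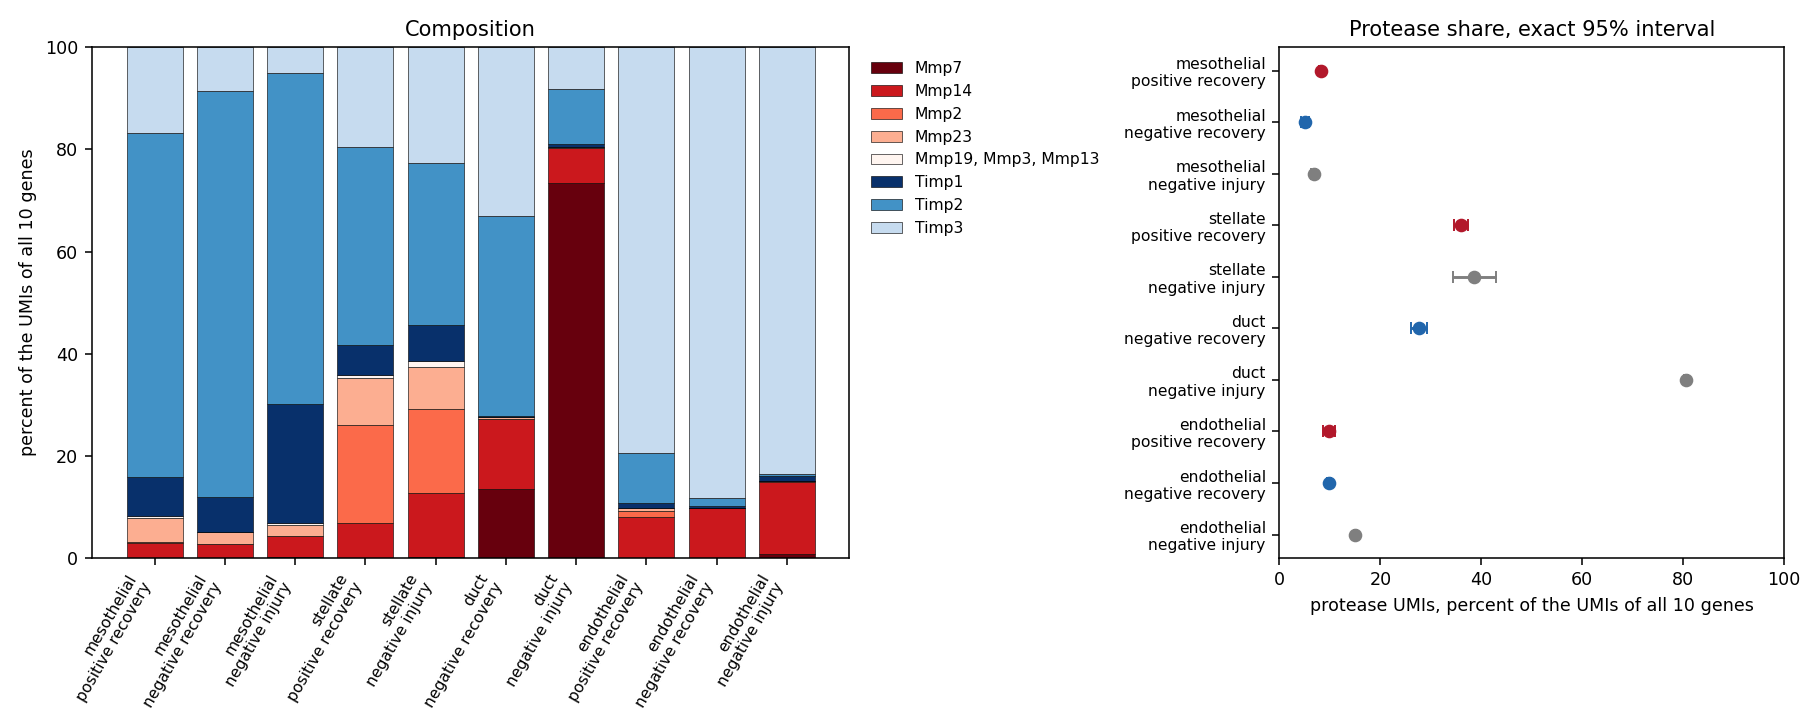
Left, makeup of the UMIs of all 10 genes (y axis, percent) in each gated class and library with at least 30 cells (x axis). Right, protease UMIs as a percent of all 10 genes (x axis) with exact Clopper-Pearson 95% intervals, where duct-gated cells of negative injury stand at 80.5% and mesothelial-gated cells of negative recovery at 5.12%.

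Within mesothelial-gated cells, the positive and negative fractions of recovery were set against each other. Mmp23 was at 116 CPM (112 to 121) in the positive and 49.8 CPM (39.0 to 62.7) in the negative fraction, a log2 ratio of 1.08. Timp3 was at 424 CPM (416 to 433) in the positive and 183 CPM (162 to 207) in the negative fraction, a log2 ratio of 1.17. These were 2 of 7 measured genes, both higher, where 1.15% of 13006 measured genes were higher and 0.0769% lower. With cells weighted equally Timp3 was at 352 CPM in the positive and 179 CPM in the negative fraction, a log2 ratio of 0.93, and Mmp2 took its place at 1.204.

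Mmp19 had 224 UMIs in the positive and 0 in the negative mesothelial-gated cells, at least 3.64-fold higher by the lower counting limit and 4.52-fold higher with the negative fraction set to 3 UMIs. Mmp2 had 195 UMIs in the positive and 1 in the negative fraction, 11.8-fold (2.09 to 468). Timp2 did not differ by much, with a log2 ratio of 0.01 and a ratio of 1.007 (0.967 to 1.05). In the positive fraction 2 of 10 measured stellate markers were higher than in the negative fraction and 0 of 10 mesothelial markers past 2-fold, and the part of stellate RNA in these values was not tested.

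The title of the series names Osr1, a zinc-finger transcription factor, and mesothelial-gated cells of positive recovery were therefore divided by detection of Osr1, into 406 cells with at least 1 UMI and 966 with none. Their medians were 16806.5 and 13986 UMIs per cell, so cells with Osr1 were deeper, and the part of depth in the split was not tested. Mmp23 was at 229 CPM (219 to 239) in cells with Osr1 and 52.9 CPM (49.3 to 56.7) in cells without, 4.32-fold (3.98 to 4.70). It was found in 82.3% of the cells with Osr1 and in 36.3% of those without. Mmp19 was at 21.8 CPM (18.8 to 25.2) and 2.36 CPM (1.65 to 3.26), a log2 ratio of 1.37, and Timp3 at 584 and 335 CPM, a log2 ratio of 0.79.

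Timp2 was at 1695 CPM in cells with Osr1 and 1716 CPM in cells without, and Mmp14 at 82.5 and 66.2 CPM. Timp1 was at 288 CPM in cells with Osr1 and 142 CPM in cells without, but the deep cell named above had 1 Osr1 UMI. Without the highest Timp1 cell of each group the levels were 119 CPM (111 to 126) with Osr1 and 133 CPM (127 to 139) without.

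**Figure D5:**
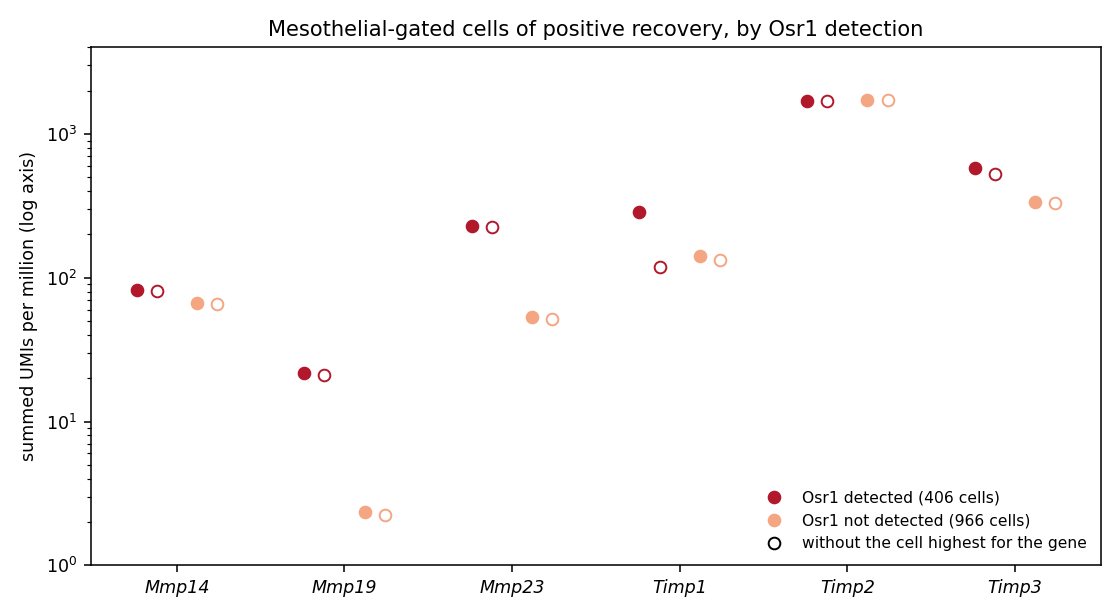
Level of 6 of the genes in CPM (y axis, log scale) in mesothelial-gated cells of positive recovery with Osr1 detected (406 cells) and not detected (966 cells), with open circles without the cell highest for that gene in each group. Mmp23 and Mmp19 are apart with and without that cell, Timp2 lies together, and Timp1 changes order when the cell is left out.

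Restricted to mesothelial-gated cells with 0 Osr1 UMIs, 966 in the positive and 76 in the negative fraction of recovery, none of the measured genes of the family was past 2-fold. Mmp23 was then at 52.9 CPM in the positive and 49.2 CPM in the negative fraction, a log2 ratio of 0.09, and Timp3 at 335 and 186 CPM, a log2 ratio of 0.82. With all mesothelial-gated cells, 1.15% of 13006 measured genes were higher and 0.0769% lower. That share was not counted in the restricted cells, and the part of Osr1-detected cells in the difference was not tested.

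Other proteases and inhibitors were counted by list. Of the plasminogen system, which activates several MMPs, 4 of 7 measured genes were lower in negative recovery than in negative injury over whole libraries and 0 higher, beside 2.2% of all measured genes lower and 1.0% higher. Plaur, the urokinase receptor, was at 12.02 CPM in recovery and 62.2 CPM in injury. In duct-gated cells 2 of 6 were lower, Plat and Plaur, beside 1.61% of all measured genes, with Plaur at 24.4 CPM in recovery and 72.3 CPM in injury.

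Of the ADAM and ADAMTS proteases, 4 of 13 measured were lower in endothelial-gated cells of recovery and 0 higher, beside 1.89% of all measured genes lower and 0.538% higher. Adamts4, an aggrecanase, was at 26.0 CPM in recovery and 213 CPM in injury, a log2 ratio of -2.63, and Adamts1 at 623 and 1493 CPM, a log2 ratio of -1.25. In duct-gated cells, where Mmp7 differed most, 0 of 11 ADAM and ADAMTS genes were past 2-fold. The secreted inhibitors Slpi and Serping1 were lower in duct-gated cells of recovery, at 3.31 and 117 CPM in recovery against 32.1 and 283.5 CPM in injury, among 3 of 7 other protease inhibitors that were lower, beside 1.61% of all measured genes.

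Between mesothelial-gated and stellate-gated cells of positive recovery 9 of 14 ADAM and ADAMTS proteases were lower in mesothelial-gated cells and 0 higher, beside 6.68% of all measured genes lower and 6.49% higher. Reck, a membrane-anchored MMP inhibitor, was at 11.5 CPM in mesothelial-gated and 65.0 CPM in stellate-gated cells, and Slpi, an inhibitor of serine proteases, at 3230 CPM in mesothelial-gated and 56.8 CPM in stellate-gated cells.

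Of 7 genes of AP-1 factors, the proteins that bind TGACTCA and TGAGTCA, 0 were past 2-fold in duct-gated cells. That stood beside 1.61% of all measured genes lower and 0.658% higher. The median log2 ratio of the 7 was 0.07 against 0.05 for all measured genes. In endothelial-gated cells Fosl2 was at 91.3 CPM in recovery and 277 CPM in injury. There 1 of 7 was lower, beside 1.89% of all measured genes. In mesothelial-gated cells 1 of 7 was lower, beside 2.09% of all measured genes. Fosl1 had 0 of 1446536 UMIs there in recovery and 111 of 5803733 in injury.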

How the data were processed

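The deposited matrices, whose file headers name software version 3.1.0, hold counts of UMIs per gene and cell. According to the submitters' processing notes, fastp, featureCounts 1.6.2 and the builds mm10 and GRCh38 were used, and the aligner is not given in the sources used here. Livers were perfused with EGTA, digested with 14 mg Pronase and 3.7 U Collagenase per mouse and separated on Nycodenz, per the labels' protocols. Total UMIs were 33442403 in positive recovery, 27816768 in negative recovery and 49993127 in negative injury.

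Cells were kept with at least 500 UMIs, 300 genes and at most 20% mitochondrial UMIs. A cell that passed several gates went to the marker pair with 3 times the UMIs of every other pair, and otherwise to no class. Doublets were not removed. An alternative removed those called by Scrublet in scanpy 1.11.5, which called 4.34% in positive recovery and 0.203% and 0.0918% in the negative libraries. How well it performs at so low a rate was not tested, so doublets may remain. Droplets carry free RNA, so a share of cells with a UMI includes background.

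Counts were summed per class and divided by summed totals. Intervals at 95% are exact Poisson for levels and Clopper-Pearson for shares (scipy 1.17.1), and a group with no UMI took a floor of 3 counts where a ratio was needed. The ratio step was tested on simulated data. Cells are not replicates, so no p-value was computed. TMM factors came from edgeR 4.0.16. Random draws used the seed 7.

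All 10 genes are described, and of other lists at most 3 genes past 2-fold per direction and comparison. Genes and lists were chosen with earlier results of these data known. The subsets by Dpt and Mfap4, Ptprc, Selp and Vwf, and alternatives without the deepest cell or without cells holding Epcam, Osr1, Dpt or Ptprc UMIs, or with Stab2 and without Vwf UMIs, were chosen after seeing the data.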

Additional observations from a re-analysis of the deposited data

Results flagged for a closer look

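Timp3 differed in direction between cell classes under the same contrast of negative recovery over negative injury. Its log2 ratio was 0.89 in mesothelial-gated cells, at 183 CPM in recovery and 94.1 CPM in injury, and 0.21 in duct-gated cells, at 179.5 CPM in recovery and 153 CPM in injury. In endothelial-gated cells it was -0.41, at 1297 CPM in recovery and 1728 CPM in injury. With 1 library per group the difference between classes was not tested.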

How the results depend on the processing

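No paired analysis was possible because each group has 1 library, and for the same reason no replicate could be left out. Of the counts past 2-fold and the protease shares under an alternative, 120 stayed within 1.5 times the count or within the share's interval, 28 shares moved beyond it, 6 counts were larger and 9 smaller. No called value turned its direction. Single ratios of the 10 genes moved by no more than counting error in 375 cases and by more in 144.

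With 1 CPM added in place of 10, the genes past 2-fold between negative recovery and negative injury were 4 over whole libraries (2 with 10 CPM), 2 in duct-gated (1), 4 in endothelial-gated (2) and 3 in mesothelial-gated cells (1), and 4 between positive and negative mesothelial-gated cells (2). With 50 CPM added they were 1 over whole libraries, 0 in endothelial-gated cells, 1 between positive and negative mesothelial-gated cells and 1 between mesothelial-gated and stellate-gated cells (2 with 10 CPM). In endothelial-gated cells the count was 1 with cells weighted equally, with cells of several gates left out and with 0 Epcam UMIs. Leaving out cells of several gates gave 2 in mesothelial-gated cells between negative recovery and injury, assigning every cell to the pair with most UMIs gave 1 between mesothelial-gated and stellate-gated cells, and 0 Osr1 UMIs gave 0 between positive and negative mesothelial-gated cells. The share of all measured genes past 2-fold was not counted under these alternatives. These counts therefore cannot be set against those of all genes. The cause was not tested, beyond the cells or CPM that each alternative changes.

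Protease shares without Timp3 were 9.79% in mesothelial-gated, 44.7% in stellate-gated and 47.8% in endothelial-gated cells of positive recovery, 41.3% in duct-gated and 84.1% in endothelial-gated cells of negative recovery, and 49.75% in stellate-gated, 87.7% in duct-gated and 91.2% in endothelial-gated cells of negative injury. Without Timp2 they were 25.01% in mesothelial-gated and 58.7% in stellate-gated cells of positive recovery, 25.04% in mesothelial-gated and 45.5% in duct-gated cells of negative recovery, and 19.15% in mesothelial-gated, 56.6% in stellate-gated and 90.1% in duct-gated cells of negative injury. Without Mmp7 they were 16.35% in duct-gated cells of negative recovery, 26.6% in duct-gated and 14.46% in endothelial-gated cells of negative injury. With cells weighted equally they were 9.07% in mesothelial-gated and 37.6% in stellate-gated cells of positive recovery, 10.6% in endothelial-gated cells of negative recovery and 79.88% in duct-gated cells of negative injury. With other gates they were 37.7% in stellate-gated cells (2 UMIs of both markers) and 8.58% or 13.4% in endothelial-gated cells of positive recovery (cells of several gates left out, or given to the pair with most UMIs), and with the last of these 79.92% in duct-gated and 15.7% in endothelial-gated cells of negative injury. Without the deepest cell the share was 8.40% in mesothelial-gated cells of positive recovery. Values of Mmp2, Mmp3, Mmp13 and Mmp19 in the negative libraries rest on few counts, at most 125 UMIs. UMIs kept in all were 33127029 in positive recovery, 27291101 in negative recovery and 48735309 in negative injury.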

Other observations

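Endothelial-gated cells were uneven in Timp1, Timp2 and Mmp14. In negative recovery, 225 of 2308 cells held a UMI of Vwf, a gene of larger vessels. They had Timp2 at 82.3 CPM (71.6 to 94.2) against 14.6 CPM (12.8 to 16.5) in cells without, 5.64-fold, and Timp1 at 14.4 CPM against 2.18 CPM, 6.63-fold. Mmp14 ran the other way, at 81.1 CPM in cells with Vwf and 152.5 CPM in cells without, a ratio of 0.532 (0.460 to 0.613). In negative injury, 489 of 3635 cells held Vwf, with Timp2 at 21.7 CPM against 8.54 CPM in cells without, Timp1 at 27.1 CPM against 18.0 CPM and Mmp14 at 198 CPM against 313 CPM. Divided by Selp, the adhesion molecule P-selectin, Timp1 was 6.95-fold higher in cells with Selp in negative recovery and 3.13-fold higher in negative injury, where 1466 cells held Selp. Timp2 was 5.83-fold higher with Selp in recovery, but its ratio was 1.105 (0.851 to 1.43) in injury, and that of Mmp14 was 0.614 in recovery and 0.899 in injury. Cells with Vwf or Selp were deeper, at medians of 10824 UMIs for Vwf and 11017.5 for Selp in negative recovery, against 8302 and 8324 in cells without.

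The genes whose levels ran most like those of the family were ranked by Pearson's r of log2 CPM with 10 added, over 10 class-by-library groups and 6113 genes that reached 50 CPM. The groups share libraries and depths and leave out ungated cells, so r is a description. For Mmp2 these were Daam2, Adamtsl2 and Abca8a, the highest at 0.998. For Mmp7 they were Apof at 0.992, Gc at 0.986 and Pzp at 0.982, which are known as genes of hepatocyte-secreted plasma proteins. For Mmp23 they were Tpm2 at 0.994, Cpz and Adamts2, and for Mmp19 Col1a1 at 0.937, Igfbp3 and Htra3. Timp1 ran with Nnmt at 0.971, C1ra and Rplp1, Timp2 with Efemp1 at 0.989, Selenom and Smim14, Timp3 with Lrch3 at 0.973, Trps1 and Ago2, and Mmp14 with Ifit2 at 0.941, Rhoc and Chic2. Mmp3 and Mmp13 reached at most 2.06 and 0.0438 CPM in any of these groups, so their ranked genes are not given. Mmp19 was also low, at 13.2 CPM at most.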
